A study of Homo sapiens with 6 samples.

Results

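The Hippo pathway genes described here are 35 named genes that encode the kinases, adaptors, scaffolds, transcription partners and upstream regulators of the pathway, without the classic targets of YAP. They were chosen by symbol, with earlier results of these data known, and make up 35 of the 35810 genes with a value in the RNA-seq files. Of these, 33 passed the filter on low counts, among 13737 genes tested.

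The libraries came from SPT5-AID cells, a line made from human DLD-1 colorectal adenocarcinoma cells. In this line the elongation factor SPT5 carries an auxin-inducible degron tag that is read by the plant receptor AtAFB2, and no auxin is named for any of the 6 libraries. The 3 shARMC5 libraries are from cells infected with a lentivirus that expresses an shRNA against ARMC5, an adaptor of the ubiquitin ligase CUL3, and the 3 shNT libraries from cells infected with a nontargeting shRNA. Both groups therefore carry the degron and a lentiviral shRNA and were selected with puromycin. The text of the study gives more than 1 shRNA construct against ARMC5 and does not tie one to these libraries. It counts replicates as biological, without saying whether they were separate cultures or infections, and the labels do not say either, so that the P values measure the spread between these libraries.

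In the Hippo pathway, the MST kinases (genes STK3 and STK4), held by the adaptor SAV1, phosphorylate the LATS kinases and their MOB1 partners. LATS kinases then phosphorylate YAP and TAZ (genes YAP1 and WWTR1), which keeps these coactivators out of the nucleus and marks them for degradation. Without this mark, YAP and TAZ bind TEAD proteins on DNA and switch on genes for growth and matrix contact. Cell contacts, polarity and tension act on the kinases through scaffolds such as NF2, WWC1 and AMOT. Most of this control is by phosphorylation, which RNA does not measure. In the intestinal epithelium the pathway is known for its part in regeneration and in colorectal tumours.

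Between 26201112 and 40866478 estimated reads per library fell on transcripts. ARMC5 was lower in every shARMC5 library (10.8, 12.0 and 12.9 counts per 1000000, CPM) than in every shNT library (23.0, 25.9 and 26.7), with a log2 fold change of -1.09 (standard error 0.08, edgeR adjusted P = 5.32e-07). Of 10 markers of colorectal epithelium, 9 had a value (all but KRT20). Their summed level was 8771 to 9085 transcripts per 1000000 (TPM) in shARMC5 and 7770 to 8304 TPM in shNT libraries, with KRT8, KRT18 and KRT19 called higher and VIL1 called lower in shARMC5 cells. Most of this rise was in KRT8 (mean 3580 TPM in shARMC5 against 3209 TPM in shNT) and KRT18 (3064 against 2614 TPM), while EPCAM, CDH1, CDX2 and CLDN7 were not called, with log2 fold changes between -0.04 and 0.03. VIL1, which encodes the brush-border protein villin, fell by 59.3% (log2 fold change -1.30, edgeR adjusted P = 2.77e-06) and was called in all 15 alternatives. KRT8 and KRT18 were called in all 15 as well. KRT19 was called in 14, and its call was lost with an offset for transcript length in edgeR (adjusted P = 0.124). LGALS4 had only 3 to 13 reads per library and was not tested. Its mean was 0.366 TPM in shARMC5 and 0.86 TPM in shNT libraries. Markers of other cells were near 0: the 7 fibroblast genes summed to between 0.884 and 1.55 TPM, the 4 blood genes to at most 1.19 TPM, and the 3 endothelial genes to at most 0.368 TPM, with COL3A1, LUM, CD3E, HBB and CDH5 at 0 in every library. The epithelial sum moved with the groups, and its part in the results below was not tested. In such bulk RNA, a change in the number of cells that express a gene and a change in RNA per cell cannot be told apart.

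Of the 33 Hippo genes tested, 6 were called higher in shARMC5 cells, namely SAV1, LATS2, WWC1, WWC2, RASSF1 and YAP1, and LATS1 was called lower. Without shARMC5 replicate 2 the calls were 2 higher (SAV1 and WWC1) and 2 lower (LATS1 and MOB1B), and without shNT replicate 1 or 3 they were 3 higher and 1 lower. Fewer genes were called in all in these settings as well, 600 without shARMC5 replicate 2, 536 without shNT replicate 1 and 694 without shNT replicate 3, against 1064 with every library. A call is an adjusted P value under 0.1 in edgeR's quasi-likelihood test with Benjamini-Hochberg adjustment over all 13737 genes. These 7 genes are 21.2% of the members tested, where 7.75% of all tested genes were called, 4.44% higher and 3.3% lower. The members were chosen with earlier results of these data known. The shares given here, of calls and of groups without overlap, are therefore no test of the list. The size of the difference in called share also depended on the setting. With an offset for transcript length, which divides each gene's counts by the average length of its transcripts in each library, edgeR called 1 of the 33 members (SAV1), where it called 1.71% of all genes, and DESeq2 called 2 (SAV1 and DLG5), where it called 4.9%. With the transcripts that matched no gene kept as features of their own, 3 members (SAV1, LATS1 and WWC1) were called, and 532 features in all. DESeq2 without the offset called 5 members and 7.39% of its genes. The members are better expressed than most genes: of all genes whose mean reached 10 CPM, 10.2% were called, beside 7 of the 30 members that reach this level (23.3%). The changes were small, between -0.29 and 0.28 on the log2 scale over all 33 genes, with a median of 0.05 against -0.0014 for all tested genes. The median size of change without its sign was 0.11 for the members and 0.08 for all tested genes. In 15 of the 33 genes (45.5%) no shARMC5 library overlapped the shNT libraries, beside 23.4% of all tested genes. At a mean of at least 10 CPM this held for 14 of 30 members (46.7%) and 26.9% of genes.

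**Figure D1:**
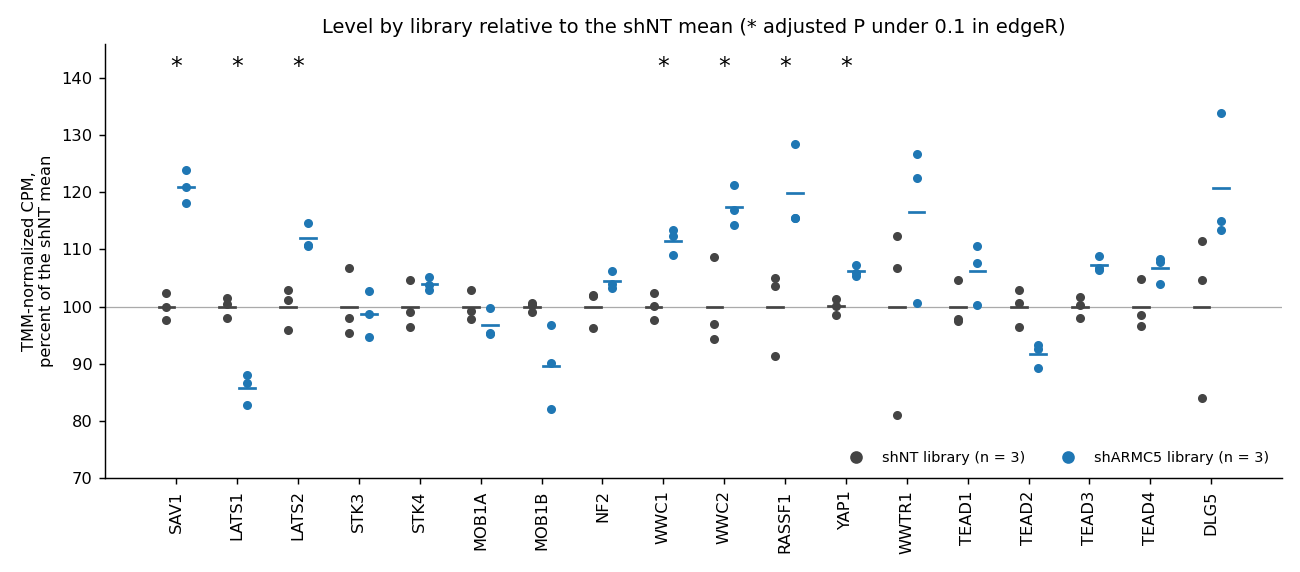
Level of 18 Hippo pathway genes in each library, as TMM-normalized CPM in percent of the mean of the 3 shNT libraries (vertical axis), with a short line at each group mean and an asterisk over the 7 genes with an adjusted P value under 0.1 in edgeR's test. SAV1, LATS2, WWC1, WWC2, RASSF1 and YAP1 lie above their shNT libraries in all 3 shARMC5 libraries and LATS1 below, while DLG5 and WWTR1 scatter widely within each group.

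The promoters of the 7 called genes were read for the motif that TEAD proteins bind, GGAATG on either strand (CATTCC, its reverse complement, where it is on the other strand). They come from the RefSeq promoter table of GRCh38.p14, which spans 250 bases before and 50 after a gene's start. The table holds 28 of the 35 members; STRN4, TEAD4, DCHS1, DLG5, TEAD1, LIMD1 and STK3 are the others. YAP1, WWC2, RASSF1 and LATS2 hold a match, and SAV1, LATS1 and WWC1 hold none in this window. The 4 genes with a match were all called higher, but none of them with the length offset described above, in edgeR or DESeq2. Their calls held in 4 (YAP1), 8 (WWC2 and RASSF1) and 10 (LATS2) of 15 alternatives. Those of the genes without a match held in 15 (SAV1) and 13 (LATS1 and WWC1). The promoters of the 4 genes are shown here up to 30 bases after the start, with the motif in capitals. They lie at chr11:102110197-102110476 (plus strand, YAP1), chr4:183099007-183099286 (plus strand, WWC2), chr3:50337421-50337700 (minus strand, RASSF1) and chr13:21061557-21061836 (minus strand, LATS2).
YAP1: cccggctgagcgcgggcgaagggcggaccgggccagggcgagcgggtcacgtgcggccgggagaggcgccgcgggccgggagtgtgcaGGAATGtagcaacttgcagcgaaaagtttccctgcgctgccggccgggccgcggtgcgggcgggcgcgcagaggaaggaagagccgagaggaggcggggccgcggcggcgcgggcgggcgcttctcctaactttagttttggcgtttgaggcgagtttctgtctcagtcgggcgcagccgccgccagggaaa
WWC2: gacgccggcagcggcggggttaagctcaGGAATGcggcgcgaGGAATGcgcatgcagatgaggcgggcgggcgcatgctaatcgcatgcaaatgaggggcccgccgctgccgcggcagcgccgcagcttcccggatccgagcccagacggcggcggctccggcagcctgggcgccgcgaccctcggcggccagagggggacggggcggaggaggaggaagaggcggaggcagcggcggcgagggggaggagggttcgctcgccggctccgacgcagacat
RASSF1: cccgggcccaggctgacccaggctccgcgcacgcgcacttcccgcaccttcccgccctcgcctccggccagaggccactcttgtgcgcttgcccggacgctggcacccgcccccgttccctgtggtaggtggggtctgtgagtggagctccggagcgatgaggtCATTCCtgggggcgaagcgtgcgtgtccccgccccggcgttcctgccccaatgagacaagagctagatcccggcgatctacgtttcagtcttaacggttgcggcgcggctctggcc
LATS2: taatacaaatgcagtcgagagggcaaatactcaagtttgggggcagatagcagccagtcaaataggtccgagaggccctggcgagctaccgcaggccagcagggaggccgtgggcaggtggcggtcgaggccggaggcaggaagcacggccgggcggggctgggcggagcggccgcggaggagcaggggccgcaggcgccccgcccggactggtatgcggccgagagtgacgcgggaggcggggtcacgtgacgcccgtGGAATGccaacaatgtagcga

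The match lies 162 bases before the start of YAP1, 222 and 208 bases before that of WWC2, and 86 bases before that of RASSF1, where it is on the other strand. In LATS2 it begins at base 10 after the start. A match is common: 14.0% of the 35116 promoters in the table and 16.7% of the 27305 gene symbols hold one, beside 8 of the 28 members in the table (28.6%). The other 4 members with a match are PTPN14, TAOK3 and WTIP, which were tested and not called, and VGLL1, which had no reads and was not tested. The letters alone do not show that a TEAD protein binds there.

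Levels of different genes were compared per transcript length, as TPM. FAT1, a giant protocadherin, was the highest of the 35 at a mean of 289 TPM over the 6 libraries (range 257 to 380). MOB1A followed with 97.7 TPM (range 89.8 to 102) and YAP1 with 80.4 TPM (range 70.5 to 87.5), and these 3 ranges do not overlap. The next genes were STRN4 at 58.8, MAP4K4 at 49.4, WWC1 at 46.0 and TEAD4 at 42.1 TPM. From MAP4K4 downwards the ranges of neighbours in this order overlap in most cases, as for STRN3 at 40.5 and TEAD1 at 40.2 TPM. At the low end were WWTR1 at 2.97, WTIP at 1.0 and DCHS1 at 0.229 TPM. AMOTL1 had 3, 7 and 0 reads in the shARMC5 libraries and 0, 2 and 0 in the shNT libraries and was not tested. VGLL1, a TEAD cofactor best known from placenta, had no read in any library, which allows up to 3 reads, or 0.0757 to 0.118 CPM. Several families had 1 main gene in these cells, with YAP1 far above WWTR1, MOB1A above MOB1B and VGLL4 above VGLL1. Of the angiomotins, AMOT had a mean of 7.11 TPM, while AMOTL2, which is not a member, had 46.3 TPM.

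**Figure D2:**
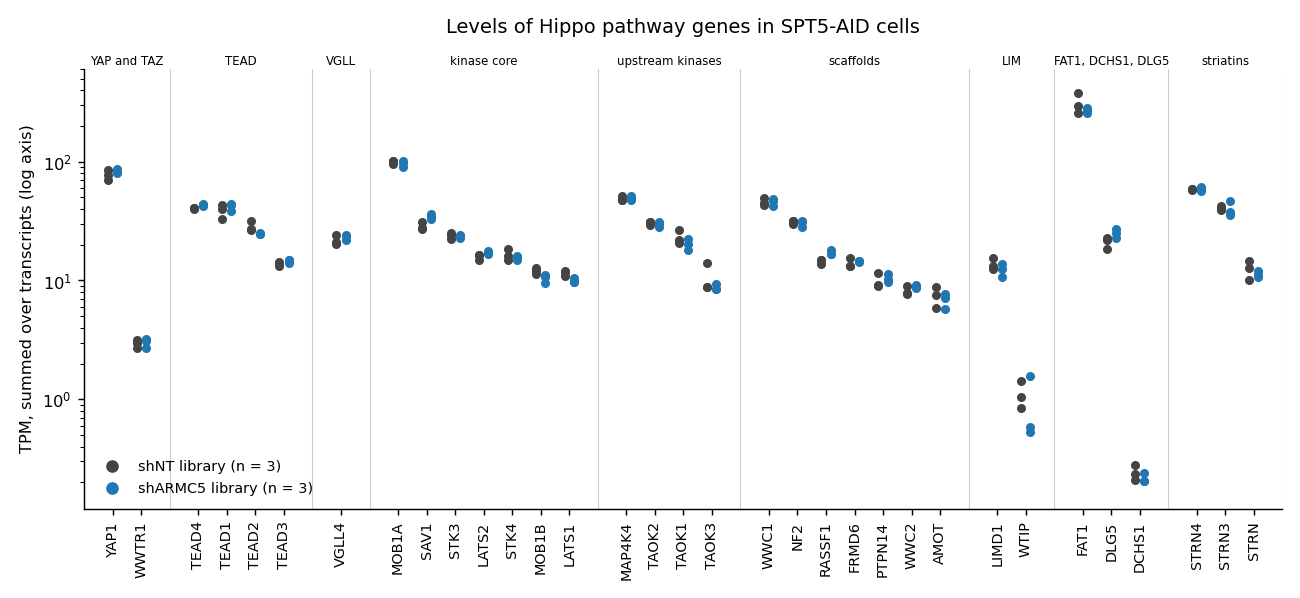
Level of 33 Hippo pathway genes in each library, in TPM summed over transcripts on a log axis, grouped by role and ordered by level within a role, with shNT libraries in grey and shARMC5 libraries in blue. FAT1, MOB1A and YAP1 are highest and WWTR1, WTIP and DCHS1 lowest, and the spread between genes is far larger than that between the groups; AMOTL1 and VGLL1 lie under the axis.

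The kinase core held 3 of the 7 calls. SAV1 (ENSG00000151748, chr14:50632058-50668306, minus strand of GRCh38), the WW-domain adaptor that brings MST and LATS kinases together, had 51.4, 53.9 and 52.6 CPM after TMM normalization in the shARMC5 libraries and 44.5, 43.5 and 42.5 CPM in the shNT libraries. All 3 shARMC5 libraries were higher, without overlap. Its level rose by 21.0%, a log2 fold change of 0.28 (standard error 0.04, edgeR adjusted P = 0.00125), on 1191 to 2127 reads per library. SAV1 was the only member called in all 15 alternative analyses, with adjusted P values up to 0.0798. Its main transcript, of 3063 bases and 383 codons, took 88.3% to 93.0% of the reads. On the opposite strand the gene ATL1, with at most 294 reads per library, shares 1789 of the 5605 exonic bases of SAV1, and the library kit does not mark the strand.

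LATS1 (ENSG00000131023, chr6:149658153-149718105, minus strand) and LATS2 (ENSG00000150457, chr13:20973036-21061586, minus strand) encode the kinases that phosphorylate YAP and TAZ. LATS1 was at 42.8, 43.5 and 40.9 CPM in shARMC5 and at 50.1, 48.5 and 49.6 CPM in shNT libraries. Every shARMC5 library was lower than every shNT library. LATS1 fell by 14.1% (log2 fold change -0.22, standard error 0.05, edgeR adjusted P = 0.00931). Its call was lost with the length offset in edgeR (adjusted P = 0.196) and in DESeq2 (adjusted P = 0.106), and held in the other 13 of 15 alternatives. LATS2, itself known as a target of YAP in feedback, had 58.3, 60.4 and 58.5 CPM in shARMC5 and 53.4, 54.3 and 50.6 CPM in shNT libraries. Here the shARMC5 libraries were the higher ones, again without overlap. LATS2 rose by 12.0% (log2 fold change 0.16, standard error 0.04, edgeR adjusted P = 0.0343), and was called in 10 of 15 alternatives. The call was lost without shARMC5 replicate 2 (adjusted P = 0.162) or shNT replicate 3 (adjusted P = 0.138), with the length offset in edgeR (adjusted P = 0.387) and DESeq2 (adjusted P = 0.426), and with unmatched transcripts kept (adjusted P = 0.102).

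In the test on counts, the LATS kinases thus moved in opposite directions. With the length offset neither was called, at log2 fold changes of -0.19 for LATS1 and 0.12 for LATS2 in edgeR. Within a library, the TPM of LATS2 was 1.61, 1.81 and 1.71 times that of LATS1 in shARMC5 cells and 1.36, 1.39 and 1.38 times in shNT cells. The shNT libraries lay within a narrow band and all shARMC5 libraries above it. The log2 ratio was higher by 0.31 in shARMC5 cells (0.77 ± 0.08 against 0.46 ± 0.01, SD, n = 3 each, two-sided exact permutation P = 0.1, the smallest that 3 libraries against 3 can give). The TPM of SAV1 was 3.14, 3.57 and 3.71 times that of LATS1 in shARMC5 and 2.55, 2.38 and 2.47 times in shNT libraries, again without overlap and with the same exact P = 0.1. Both ratios restate the calls of these genes on another scale, and SAV1 remained the more abundant of the pair in every library.

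The other 4 genes of the core were not called. STK3, which encodes MST2, had 36.7, 35.2 and 38.2 CPM in shARMC5 and 35.4, 36.4 and 39.7 CPM in shNT libraries. The groups overlap, and the log2 fold change of -0.02 had an interval of 2 standard errors from -0.14 to 0.09. STK4, which encodes MST1, had 63.6, 64.4 and 63.0 CPM against 64.1, 60.6 and 59.1 CPM, a log2 fold change of 0.06 (edgeR adjusted P = 0.520). The shNT library of replicate 1 lay among the shARMC5 libraries. MOB1A, one of the genes for the MOB1 coactivators of LATS, had 201, 210 and 201 CPM against 209, 217 and 206 CPM. Its log2 fold change was -0.05 (edgeR adjusted P = 0.444), and the groups overlap. Its paralog MOB1B had 38.3, 41.1 and 34.9 CPM against 42.6, 42.1 and 42.8 CPM. All shARMC5 libraries of MOB1B were lower than the shNT libraries, but the log2 fold change of -0.15 (standard error 0.06) did not pass the test (edgeR adjusted P = 0.155). MOB1B was called in 3 of 15 alternatives, with all genes of at least 1 count (adjusted P = 0.0794), with a replicate block (adjusted P = 0.0851) and without shARMC5 replicate 2 (adjusted P = 0.0748). MOB1A stood at 7.98 to 9.50 times the TPM of MOB1B in the 6 libraries, and the groups overlap in this ratio (exact permutation P = 0.2).

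**Figure D3:**
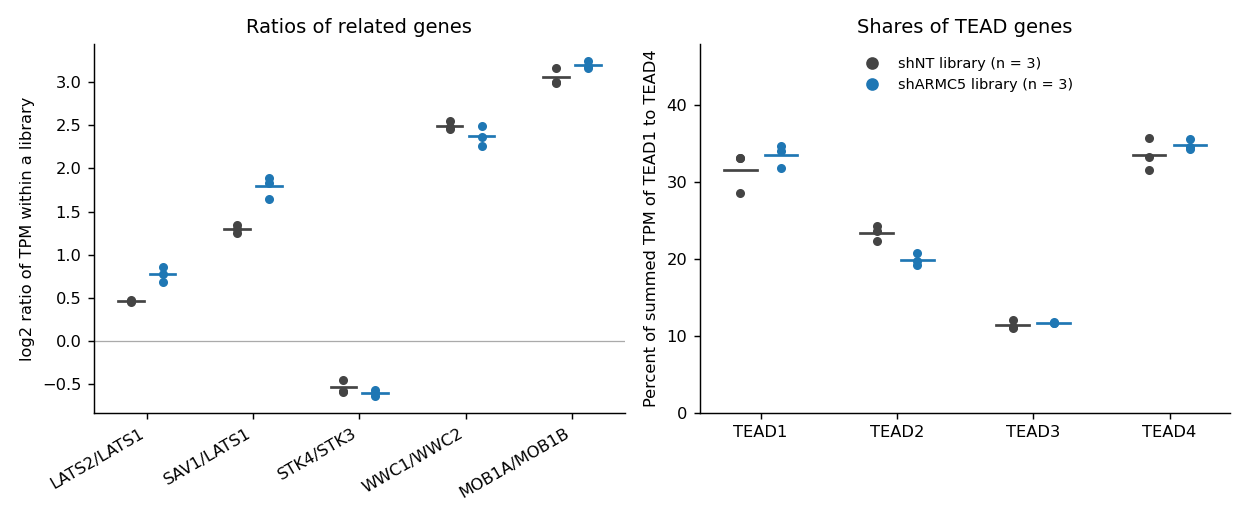
Left, log2 ratio of the TPM of 5 pairs of genes within each library; right, share of TEAD1, TEAD2, TEAD3 and TEAD4 in their summed TPM, in percent; points are libraries and lines group means. The LATS2/LATS1 and SAV1/LATS1 ratios are higher in all 3 shARMC5 libraries and the TEAD2 share is lower, while the other ratios and shares overlap between the groups.

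Among the scaffolds, WWC1, WWC2 and RASSF1 were called higher. WWC1 (ENSG00000113645, chr5:168291645-168472303, plus strand) encodes KIBRA, which acts with NF2 at the cell cortex to recruit LATS kinases. It had 113, 116 and 117 CPM in shARMC5 and 103, 106 and 101 CPM in shNT libraries, and the groups do not overlap. The log2 fold change was 0.16 (standard error 0.03, edgeR adjusted P = 0.0106). Per transcript length, this difference was not seen. WWC1 had 42.5, 46.9 and 48.2 TPM in shARMC5 and 49.9, 45.1 and 43.5 TPM in shNT libraries, which overlap, and with an offset for transcript length the log2 fold change was 0.0089 (edgeR adjusted P = 0.972). The average length of its transcripts, weighted by their estimated abundance, was 3519 bases in shARMC5 and 3172 bases in shNT cells. WWC1 has 16 annotated transcripts in the files, and salmon's division of reads among them differed widely within a group. The transcript ENST00000393895, of 3980 bases, had 14.8, 11.5 and 5.77 TPM in shARMC5 and 8.34, 10.1 and 6.49 TPM in shNT libraries. That range within each group is wide, and the transcript did not pass the test (edgeR unadjusted P = 0.327).

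WWC2 (ENSG00000151718, chr4:183099257-183320777, plus strand), a paralog of WWC1 that also binds LATS kinases, had 32.7, 31.5 and 30.8 CPM in shARMC5 and 26.1, 29.3 and 25.4 CPM in shNT libraries. Every shARMC5 library was above the highest shNT library, replicate 2. WWC2 rose by 17.5% (log2 fold change 0.23, standard error 0.06, edgeR adjusted P = 0.0444). The call was lost when any 1 of 4 libraries was left out (shARMC5 replicate 1 or 2, shNT replicate 1 or 3), with adjusted P values between 0.114 and 0.170. It was also lost with unmatched transcripts kept (adjusted P = 0.149) and with the length offset, which lowered the log2 fold change to 0.13 in edgeR (adjusted P = 0.464) and in DESeq2 (adjusted P = 0.548), so that it held in 8 of 15 alternatives. One of its 10 transcripts, ENST00000508747 of 1216 bases, held 17, 29 and 16 estimated reads in the shARMC5 libraries and 0 in each shNT library, where 0 allows up to 3 reads. This transcript was picked out after its values were seen, took at most 2.37% of the gene's reads, and did not pass the test over transcripts (edgeR adjusted P = 0.324).

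RASSF1 (ENSG00000068028, chr3:50329782-50340980, minus strand) encodes scaffold proteins that bind MST kinases, and its upstream promoter is known to be silenced by DNA methylation in many tumours. It had 19.5, 19.5 and 21.7 CPM in shARMC5 and 15.4, 17.5 and 17.7 CPM in shNT libraries, without overlap. The rise was 19.8% (log2 fold change 0.26, standard error 0.07, edgeR adjusted P = 0.0548) on 496 to 768 reads per library. Without shARMC5 replicate 2 (adjusted P = 0.106), shARMC5 replicate 3 (adjusted P = 0.210) or shNT replicate 1 (adjusted P = 0.237) it was not called, nor with DESeq2 (adjusted P = 0.12), with the length offset in edgeR (adjusted P = 0.279) or DESeq2 (adjusted P = 0.250), or with unmatched transcripts kept (adjusted P = 0.176). The call held in 8 of 15 alternatives. Of the 10 transcripts of RASSF1 in the files, only 2 had any read. ENST00000327761, which starts at base 50337464 of chromosome 3 and encodes 270 codons, took 93.5% to 96.9% of the reads, and the retained-intron transcript ENST00000478619 had 24 to 35 reads per library. The 2 long coding transcripts from the upstream start, ENST00000357043 with 344 codons and ENST00000359365 with 340 codons, had 0 reads in all 6 libraries, which allows up to 3 reads, or 0.391% to 0.605% of the gene's reads. The promoter printed above for RASSF1 lies at the start of ENST00000327761, whereas ENST00000478619 begins upstream, at base 50340980.

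The remaining scaffold genes were not called. NF2 (ENSG00000186575, chr22:29603556-29698598, plus strand) encodes merlin, the tumour suppressor that links the cell cortex to LATS activation. It had 81.7, 79.9 and 79.3 CPM in shARMC5 and 78.4, 78.3 and 73.9 CPM in shNT libraries. The groups do not overlap, but the log2 fold change of 0.06 (standard error 0.04) did not pass the test (edgeR adjusted P = 0.406), and with the length offset it was -0.02. FRMD6, PTPN14 and AMOT had log2 fold changes of 0.09, 0.12 and -0.11, with edgeR adjusted P values between 0.424 and 0.450, and their groups overlap. PTPN14 was called in 3 of 15 alternatives, with all genes of at least 1 count (adjusted P = 0.0519), with a replicate block (adjusted P = 0.0545) and without shARMC5 replicate 3 (adjusted P = 0.0489). FRMD6 is an upstream FERM-domain protein, PTPN14 a phosphatase that binds YAP and AMOT a junction protein that holds YAP outside the nucleus.

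NF2 and YAP1 are known for alternative exons that change the protein. The internal exons of both genes that were held by 5% to 95% of the TPM of the protein-coding transcripts that span them were examined, a choice made after transcript values had been seen. The NF2 exon of 45 bases (chr22:29683020-29683064, plus strand), near the end of the coding region, tells merlin isoform 2 from isoform 1. The YAP1 exon of 114 bases (chr11:102186018-102186131, plus strand) encodes the second WW domain, with which YAP binds its partners. Both are printed from the GRCh38 genome with the exon in capitals and 10 bases of intron on each side.
NF2 exon: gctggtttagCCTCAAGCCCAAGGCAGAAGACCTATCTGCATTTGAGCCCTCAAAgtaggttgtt
YAP1 exon: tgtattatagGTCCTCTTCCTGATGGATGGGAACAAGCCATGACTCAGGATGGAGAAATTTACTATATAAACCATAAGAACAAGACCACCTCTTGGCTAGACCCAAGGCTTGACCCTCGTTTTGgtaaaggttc

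Of the TPM of NF2, 34.2%, 31.5% and 37.2% in shARMC5 and 28.5%, 29.8% and 24.7% in shNT libraries held the 45-base exon. All shARMC5 shares were above all shNT shares. The means were 34.3% ± 2.88 and 27.6% ± 2.64 (SD, n = 3 each), a difference of 6.63 percentage points (two-sided exact permutation P = 0.1, the smallest possible), which stayed between 5.15 and 8.04 with each library left out in turn. An NF2 exon of 123 bases near the start of the coding region (chr22:29639090-29639212) went the other way, at 68.4%, 70.7% and 63.3% in shARMC5 and 73.1%, 72.3% and 75.7% in shNT libraries, with exact permutation P = 0.1. The transcript ENST00000361452 of 5884 bases holds the 45-base exon, lacks the 123-base exon and made up 83.5% to 94.5% of the TPM with the former. That transcript was at 10.1, 8.98 and 9.32 TPM in shARMC5 and 8.52, 7.84 and 6.30 TPM in shNT libraries, without overlap, and did not pass the test over transcripts (edgeR adjusted P = 0.764). ENST00000338641 was lower in every shARMC5 library, at 4.0, 4.76 and 4.79 TPM against 5.46, 5.04 and 5.32 TPM, and ENST00000361166 had a mean of 14.7 TPM in shARMC5 and 16.0 TPM in shNT cells, with overlap. Neither passed the test over transcripts (edgeR unadjusted P = 0.0865 and 0.428). Another NF2 exon, of 135 bases, was held by 46.8% to 55.3% over the 6 libraries, with overlapping groups. As shares of reads, which give long transcripts more weight, the levels were different: means of 51.3% in shARMC5 and 42.5% in shNT cells for the 45-base exon, 49.8% and 58.4% for the 123-base exon, and 77% and 74% for the 135-base exon. The directions were the same, and the groups again overlapped only for the 135-base exon.

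The WW-domain exon of YAP1 was held by 84.6%, 82.9% and 82.6% of the TPM in shARMC5 and by 80.5%, 83.0% and 82.0% in shNT libraries. These overlap (exact permutation P = 0.3), and most YAP1 TPM held the exon in either group. The next exon has a short form of 182 bases and a long form of 194 bases, and the long form made up 31.4% to 38.9% in shARMC5 and 32.4% to 39.2% in shNT libraries. An exon of 48 bases after it, in the part that encodes the activation domain, was held by 57.4% to 63.8% and 56.2% to 66.2%. The groups overlap for each of these. The shares rest on salmon's division of reads among annotated transcripts that differ in more than the exon.

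**Figure D4:**
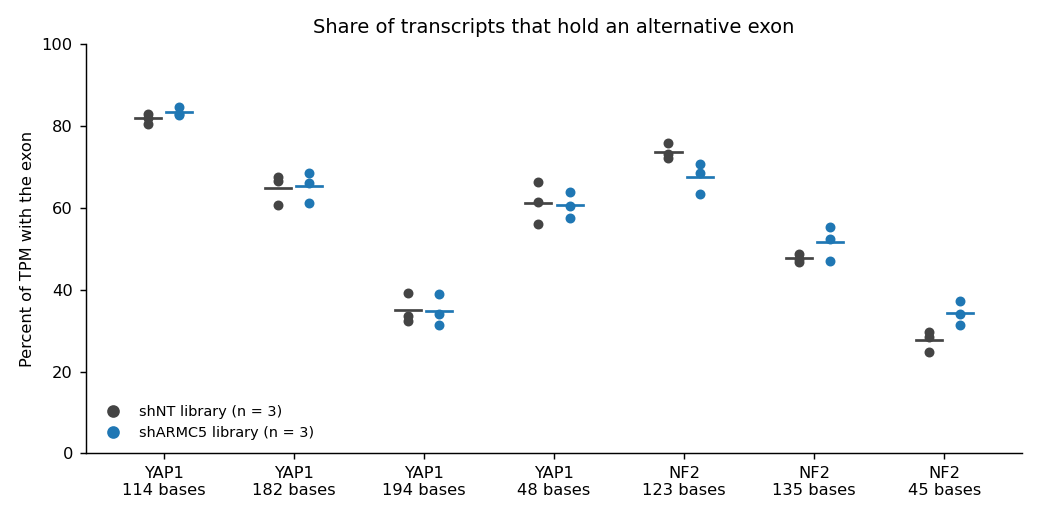
Share of the TPM of protein-coding transcripts spanning an exon that holds it, in percent, for 7 alternative exons or exon forms of YAP1 and NF2 named by their length, with libraries as points and group means as lines. The NF2 exon of 45 bases is higher and that of 123 bases lower in all 3 shARMC5 libraries, and the groups overlap for the other 5.

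Of the effectors, YAP1 (ENSG00000137693, chr11:102110447-102233424, plus strand) had 221, 218 and 217 CPM in shARMC5 and 209, 206 and 203 CPM in shNT libraries. The libraries within a group were close to each other and the groups did not overlap. The rise was 6.15% (log2 fold change 0.09, standard error 0.03, edgeR adjusted P = 0.0770). This was the weakest of the 7 calls: it held in 4 of 15 alternative analyses and was lost when any single library was left out (adjusted P values from 0.110 to 0.247). WWTR1, which encodes TAZ, had 5.28, 6.64 and 6.42 CPM against 5.60, 5.89 and 4.25 CPM, and the groups overlap. Its log2 fold change was 0.22 (edgeR adjusted P = 0.470), with an interval of 2 standard errors from -0.07 to 0.51 on 119 to 262 reads. With the length offset it was 0.06 (edgeR adjusted P = 0.896). In TPM, YAP1 stood at 25.3 to 32.2 times WWTR1 in the 6 libraries, with overlapping groups (exact permutation P = 1.0).

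None of the 4 TEAD genes, which encode the DNA-binding partners of YAP and TAZ, was called by edgeR, and DESeq2 called 0 as well, while 2 of them had an unadjusted P under 0.05. TEAD1 had 227, 221 and 205 CPM in shARMC5 and 215, 201 and 200 CPM in shNT libraries. These groups overlap (log2 fold change 0.09, edgeR adjusted P = 0.273). TEAD1 was called in 3 of 15 alternatives, with all genes of at least 1 count (adjusted P = 0.0906), with a replicate block (adjusted P = 0.0375) and without shARMC5 replicate 3 (adjusted P = 0.0623). TEAD2 had 34.8, 36.1 and 36.4 CPM against 39.2, 37.6 and 40.1 CPM. It was the only TEAD gene with lower values in shARMC5 cells, in all 3 libraries (log2 fold change -0.13, standard error 0.05, edgeR adjusted P = 0.205). TEAD3 had 29.1, 29.7 and 29.2 CPM against 27.4, 26.8 and 27.8 CPM, with no overlap (log2 fold change 0.10, edgeR adjusted P = 0.346). TEAD4 had 44.9, 43.3 and 45.1 CPM against 41.1, 40.2 and 43.7 CPM. Its groups overlap by 1 library on each side (log2 fold change 0.09, edgeR adjusted P = 0.338).

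As a share of the summed TPM of the 4 TEAD genes, TEAD2 made up 19.3%, 19.8% and 20.7% in shARMC5 and 24.3%, 22.4% and 23.6% in shNT libraries. The share was lower in each shARMC5 library, by 3.50 percentage points in the mean (two-sided exact permutation P = 0.1, the smallest possible). TEAD1 (28.6% to 34.7%) and TEAD4 (31.6% to 35.7%) held the larger shares and TEAD3 (11.0% to 12.0%) the smallest, each with overlapping groups. VGLL4, which competes with YAP for TEAD, was at 44.7 to 50.1 CPM in shARMC5 and 43.6 to 46.5 CPM in shNT libraries and was not called (edgeR adjusted P = 0.668).

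The upstream kinases TAOK1, TAOK2, TAOK3 and MAP4K4, which can activate MST or LATS kinases, gave 0 calls in edgeR and 0 in DESeq2, and 0 had an unadjusted P under 0.05. Their log2 fold changes lay between -0.12 (TAOK1) and 0.03 (MAP4K4), and the groups overlap in each. TAOK1 (edgeR adjusted P = 0.418) was called lower in 3 of 15 alternatives, with all genes of at least 1 count (adjusted P = 0.0104), with a replicate block (adjusted P = 0.0212) and without shNT replicate 2 (adjusted P = 0.0960). The 3 striatins, scaffolds of a phosphatase complex that keeps MST kinases inactive, gave 0 calls in edgeR and in DESeq2, with 1 unadjusted P under 0.05. STRN was that gene, at 76.6, 77.4 and 71.9 CPM against 78.6, 81.3 and 82.0 CPM, lower in every shARMC5 library (log2 fold change -0.10, edgeR adjusted P = 0.189). STRN3 had 67.1, 76.0 and 68.7 CPM in shARMC5 and 67.8, 69.0 and 72.6 CPM in shNT libraries, with overlap, and STRN4 had a log2 fold change of 0.02.

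LIMD1 and WTIP encode LIM proteins that bind LATS kinases and hold them back at junctions. LIMD1 had 56.1, 54.9 and 51.4 CPM against 58.6, 58.2 and 59.3 CPM, lower in every shARMC5 library, but was not called (log2 fold change -0.12, edgeR adjusted P = 0.152) except with a replicate block (adjusted P = 0.0993). WTIP, on 63 to 104 reads, had 2.77, 2.64 and 2.50 CPM against 2.36, 2.22 and 2.25 CPM. These do not overlap, but the log2 fold change of 0.21 did not pass the test (edgeR adjusted P = 0.599) and turned to -0.33 with the length offset.

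The cadherins FAT1 and DCHS1 and the polarity protein DLG5, which binds MST kinases, were not called. FAT1 was at 1700, 1536 and 1322 CPM in shARMC5 and at 2272, 1600 and 1694 CPM in shNT libraries. The groups overlap and shNT replicate 1 stands far above the rest, so that the most negative log2 fold change of the members, -0.29 (standard error 0.19, edgeR adjusted P = 0.518), was -0.12 without it. DLG5 had 106, 125 and 108 CPM in shARMC5 and 98.1, 78.6 and 104 CPM in shNT libraries. The shARMC5 libraries were higher, by a narrow margin over shNT replicate 3. Its log2 fold change of 0.28 equalled that of SAV1 to 2 decimals with a standard error of 0.14 in place of 0.04, and edgeR's adjusted P was 0.412. It dropped to 0.16 without shNT replicate 2 and was 0.36 without shNT replicate 3, while that of SAV1 stayed between 0.26 and 0.29 with any 1 library left out. DESeq2 with a length offset did call DLG5 (adjusted P = 0.0731). DCHS1 rested on 45 to 66 reads (log2 fold change -0.12, edgeR adjusted P = 0.841).

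**Figure D5:**
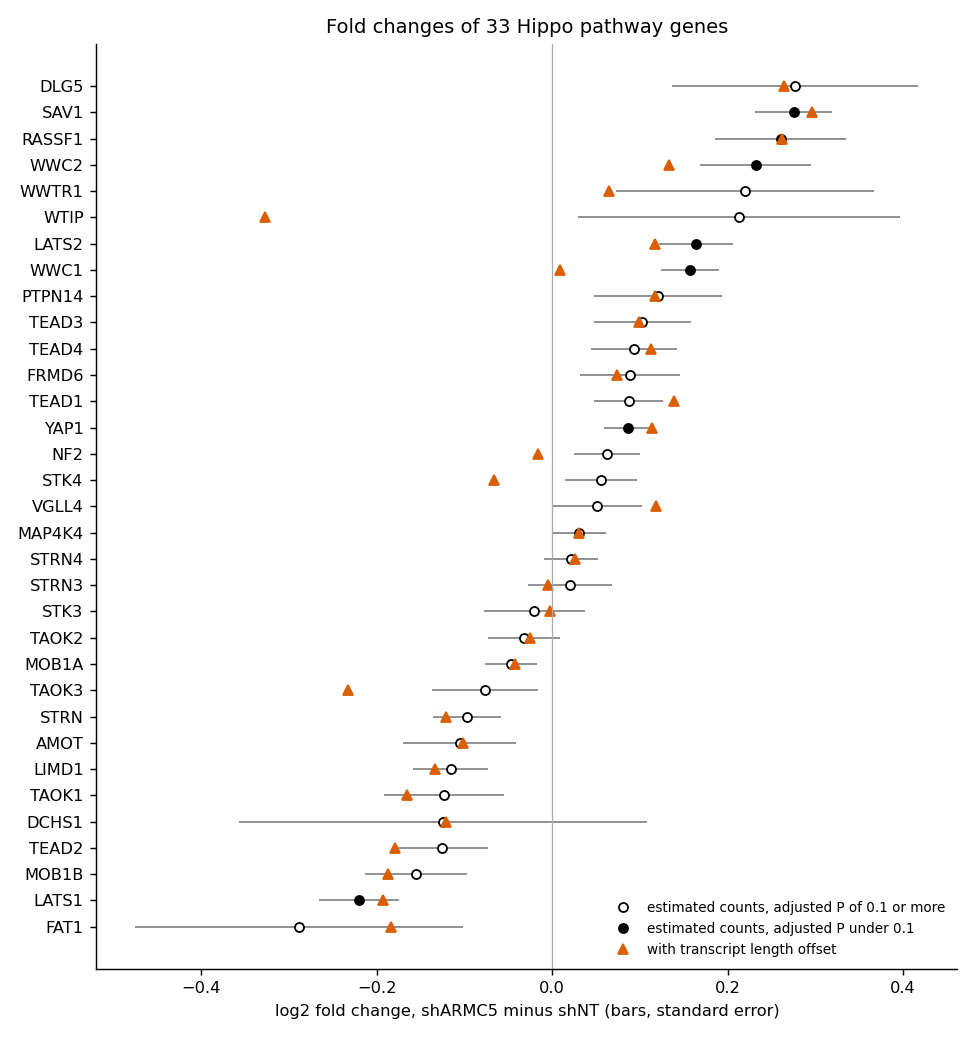
Log2 fold change, shARMC5 minus shNT, of the 33 tested Hippo pathway genes from estimated counts (circles, with bars of 1 standard error, filled for an adjusted P value under 0.1 in edgeR's test) and with an offset for average transcript length (triangles). Most triangles lie near their circle. WWC1 moves from 0.16 to near 0, WWC2 from 0.23 to 0.13 and WWTR1 from 0.22 to 0.06. TAOK3 moves from -0.08 to -0.23 and FAT1 from -0.29 to -0.18, and WTIP, NF2, STK4 and STRN3 change sign.

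The offset for transcript length gave SAV1 a log2 fold change of 0.30 in edgeR (adjusted P = 0.0798). The log2 fold change with the offset was 0.26 for RASSF1 (adjusted P = 0.279) and -0.19 for LATS1 (adjusted P = 0.196). It was 0.12 for LATS2 (adjusted P = 0.387) and 0.11 for YAP1 (adjusted P = 0.392), and none of these genes was called. For WWC1 and WWC2 the average length was higher in shARMC5 cells by factors of 1.11 and 1.07, and for SAV1, LATS1, LATS2, RASSF1 and YAP1 the factor lay between 0.979 and 1.03. DESeq2 without the offset left out RASSF1 and YAP1. With the offset, DESeq2 gave SAV1 an adjusted P of 0.00538.

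Taken per transcript, none of the 133 tested transcripts of the members was called by edgeR, beside 4 of the 49809 transcripts tested in all (0.00803%). At an unadjusted P under 0.05 there were 11, and DESeq2 was not run on transcripts. The smallest adjusted P of a member was 0.307, for ENST00000324679 of SAV1, at 26.5, 27.4 and 25.4 TPM in shARMC5 and 23.7, 22.4 and 21.6 TPM in shNT libraries. The leading transcript of LATS2 (ENST00000382592) took at least 99.6% of its reads, that of LATS1 (ENST00000543571) 90.5% to 95.6%, and that of YAP1 (ENST00000282441) 40.1% to 58.5%. ENST00000397122, a transcript of TEAD4 with 1396 bases that was picked out after its values were seen, had 3.35, 4.04 and 4.57 TPM in shARMC5 and 1.93, 2.14 and 1.69 TPM in shNT libraries. Its groups lie well apart, but it did not pass the test (log2 fold change 1.07, standard error 0.25, edgeR adjusted P = 0.500).

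In a wider list of 80 Hippo genes outside the 35, 72 were tested, and 6 were called higher and 1 lower. This is 9.72%, against 7.75% of all tested genes and 10.2% of those that reached 10 CPM on average. The median log2 fold change was 0.01. Without its sign, the median size of change was 0.04, against 0.08 for all tested genes. The groups did not overlap in 19.4% of the 72 genes, beside 23.4% of all tested genes. By size of change and overlap, the wider list did not stand above all tested genes. With the length offset, the calls of the wider list were 2 higher and 2 lower in edgeR and 3 higher and 4 lower in DESeq2. AMOTL2 and SFN were the 2 genes shared with the calls without the offset in either. AMOTL2, the angiomotin paralog that is also known as a YAP target, was at 151, 149 and 142 CPM in shARMC5 and 117, 128 and 116 CPM in shNT libraries. It rose by 0.29 on the log2 scale, without overlap (edgeR adjusted P = 0.000593), and was called in all 15 alternatives. SFN, a binding protein of phosphorylated YAP, rose by 0.18 (edgeR adjusted P = 0.000622) and was called in all 15 as well. CTNNA1, AJUBA, YWHAH and PPP2R1A rose by 0.09 to 0.10, with edgeR adjusted P values between 0.0433 and 0.0605 and between 7 and 9 calls in 15 alternatives. These encode alpha-catenin, a LIM protein that restrains LATS, a binding protein of phosphorylated YAP and a scaffold subunit of protein phosphatase 2A. RASSF5, which binds MST kinases, fell by 0.24 (edgeR adjusted P = 0.0377) and was called in 8 of 15 alternatives. Its call was lost with the length offset in edgeR (adjusted P = 0.240) and DESeq2 (adjusted P = 0.203), with unmatched transcripts kept as features (adjusted P = 0.105), and without shARMC5 replicate 1 or 3 or shNT replicate 1 or 2 (adjusted P values from 0.103 to 0.122). The calls were 3 of the 10 tested paralogs of members, 1 of 13 genes of the striatin phosphatase complex, 1 of 14 polarity and junction genes, and 2 of 24 genes for the binding, turnover or phosphorylation of YAP. Of the 11 further kinases, edgeR and DESeq2 called 0, and 0 had an unadjusted P under 0.05.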

How the data were processed

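Polyadenylated RNA of SPT5-AID cells was sequenced in 3 shARMC5 and 3 shNT libraries. The authors used cutadapt 4.2 for trimming and Salmon 1.9.0 for quantification on hg38. The deposited values used here are the estimated count of reads per transcript, TPM and effective length. Identifiers without version were matched to GENCODE 44 (165533 of 177456), since the transcript set is not given in the sources used here; the others held 2.96% to 3.04% of reads and were left out.

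Estimated counts were added up per gene and rounded, and genes reaching 10 counts in 3 or more libraries were tested with edgeR 4.0.16 (quasi-likelihood, robust, TMM factors 0.992 to 1.02, condition only, common coefficient of variation 0.0643). P values were adjusted by Benjamini-Hochberg over all genes, and calls were made under 0.1. DESeq2 1.42.0 was an alternative. TPM as deposited by the authors served for levels, ratios and exon shares, tested with two-sided exact permutation tests (scipy 1.17.1). On simulated data for shARMC5 against shNT, where 200 of 13737 genes had a log2 change of 1, edgeR recovered 80.5% with 12.02% of calls false. Over transcripts, with 200 of 49809 changed, it recovered 11.0%. Changes as small as those of the members, between -0.29 and 0.28, were not simulated. The recovered shares therefore do not hold for changes of that size.

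The members and lists were chosen with earlier results of these data known. Values per library are given for called members, the kinase core, YAP1, WWTR1, the TEAD genes and NF2. They are also given for members whose call or sign changed with the length offset, and in the wider list for AMOTL2. STRN, LIMD1, FAT1, transcripts that do not lead their gene and the exons were picked out after their values were seen. Of the wider list at most 6 called genes each way are named, and 1 blood marker is not reported here.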

Additional observations from a re-analysis of the deposited data

How the results depend on the processing

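The number of called genes was 1064 and of called members 7. With an offset for transcript length in edgeR these were 235 and 1, with DESeq2 and that offset 568 and 2, and with unmatched transcripts kept as features 532 and 3. With all genes of at least 1 count these were 1537 and 11. The 7 members were 6 higher and 1 lower, against 8 and 3 with all genes of at least 1 count and 2 and 2 without shARMC5 replicate 2. At an adjusted P under 0.05, 676 genes were called. Leaving out 1 library at a time gave 536 to 1085 genes, 4 to 7 members and 2 to 8 of the wider list, with 4 members without shARMC5 replicate 2, shNT replicate 1 or shNT replicate 3. The wider list, with 7 calls, had 4 with library sizes only, 4 with the length offset in edgeR and 7 in DESeq2, 3 with unmatched transcripts kept and 4 at an adjusted P under 0.05. Library sizes only gave 458 higher and 495 lower genes, against 610 and 454.

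The replicate numbers are shared by the groups. Deviations of same-numbered libraries correlated by 0.0065, 0.030 and 0.059, and those of differently numbered libraries by -0.054 to 0.025. The same-numbered values were all positive but small, and the numbers were not taken as pairs. A replicate block gave 1766 called genes, 12 members (8 higher, 4 lower) and 10 genes of the wider list. The members gained with 1 or more of these settings were MOB1B, PTPN14, TAOK1, TEAD1 and LIMD1, and DLG5 with the length offset in DESeq2.

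Among the values of single members under the alternatives, 434 kept direction and side of the threshold, 34 lost and 14 gained a call, and 13 changed sign, none of them called. With the length offset in edgeR and in DESeq2, respectively, STK4 had -0.067 and -0.067, NF2 -0.016 and -0.016, WTIP -0.33 and -0.31, and STRN3 -0.0050 and -0.0067. With 1 library left out, VGLL4 ranged from -0.0013 to 0.081, STK3 from -0.053 to 0.027, TAOK2 from -0.058 to 0.014 and STRN3 from -0.039 to 0.057. The cause of these differences was not tested. Of 14 ratios, 4 moved by more than their spread with counts per annotated length. The LATS2/LATS1 difference was 0.39 in place of 0.31, and that of the TEAD2 share -2.38 in place of -3.50 points. The differences of STK4/STK3 (0.08 in place of -0.06) and YAP1/WWTR1 (-0.14 in place of 0.05) changed sign, and the groups of both overlap in TPM. With reads in place of TPM, the group difference of the YAP1 exon of 114 bases also moved by more than its spread (0.35 in place of 1.52 points). The exon settings were chosen after seeing the data. A gene under about 100 reads, such as WTIP or DCHS1, carries a counting error larger than most changes described.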
